A study of Drosophila melanogaster with 12 samples.

Results

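The Netrin, Slit and Robo genes encode secreted axon guidance cues and their receptors. The set was taken as 7 genes, NetB, fra, unc-5, sli, robo1, robo2 and robo3, and its probe sets as those that the platform annotation gives to exactly 1 of these genes, by symbol, synonym or gene identifier. There were 7 such probe sets among the 13647 of the array with 1 gene, and they covered 5 of the 11983 named genes: NetB, fra and robo1 with 1 probe set each, and unc-5 and sli with 2 each. robo2 (also called lea) and robo3 are not analysed here, since no probe set is named for them.

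Netrins are laminin-related secreted proteins that attract growth cones through Frazzled, the fly DCC receptor encoded by fra, and repel them through the Unc5 receptor. Slit is a secreted leucine-rich repeat protein that repels growth cones carrying Roundabout receptors. In the fly visual system, Frazzled on R8 axons reads Netrin laid down in the layer of the medulla where these axons end.

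RNA came from eye imaginal discs of wandering larvae in the third instar, with the antennal part cut away per the labels, and 12 arrays in 4 groups of 3 were hybridised. In the Runt group the genotype was w with the driver ro-Gal4 over UAS-Run, and in the Runt G163R group it was w with ro-Gal4 over UAS-Run[G163R]. The driver carries regulatory DNA of rough (ro), a homeobox gene of part of the outer photoreceptors, so both groups of this experiment misexpress a form of Runt and neither lacks a transgene. The sens mutant group was w and homozygous for both elements that the labels write as sensDF2RES and sensE1, and the control group was w and heterozygous for both, so its discs also carry these alleles. Runt is a transcription factor of R7 and R8 cells and Senseless a zinc-finger factor of R8 cells. Each disc also holds undifferentiated cells, other photoreceptors and glia. Whether the replicates are separate crosses is not in the labels, and the p-values therefore describe the spread among these arrays alone, which may be technical.

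On the deposited log2 scale, between 54.2% and 54.9% of the values of an array lay under 3, in a dense floor where differences are compressed. The photoreceptor genes gl and elav were above 10 on every array. elav is expressed in neurons of other tissues too. The transcript of sens itself was at 10.78, 10.36 and 10.61 in the arrays labelled sens mutant, against 8.96, 9.30 and 9.61 in controls. The labels do not say whether these alleles remove transcript, so each direction given here is that of the labels. boss, the R8 ligand gene, was at 2.27, 2.39 and 2.59 in the sens mutant arrays and at 6.48, 6.51 and 6.38 in controls. run has no named probe set and was not used to check the labels. Runt replicate 3 stood apart from the other Runt arrays for several genes, among them boss at 6.17 against 7.25 and 7.38, and values of the Runt comparison without it are given for NetB and for the pathway genes Ptp10D and tutl.

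In the comparison of sens mutant with control discs, the Slit receptor gene robo1 and the Netrin gene NetB were lower in the mutants, and fra, unc-5 and sli did not pass the test. robo1 fell by 1.80 on the log2 scale, to 0.288 of the control level, and NetB fell by 0.65, to 0.636 of it. In the comparison of Runt with Runt G163R discs none of the 5 genes passed the test. NetB there had the largest difference of the 5, at 0.50 in the direction opposite to that in the sens mutants. In whole discs, fewer cells of a type and less RNA per cell cannot be told apart.

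**Figure D1:**
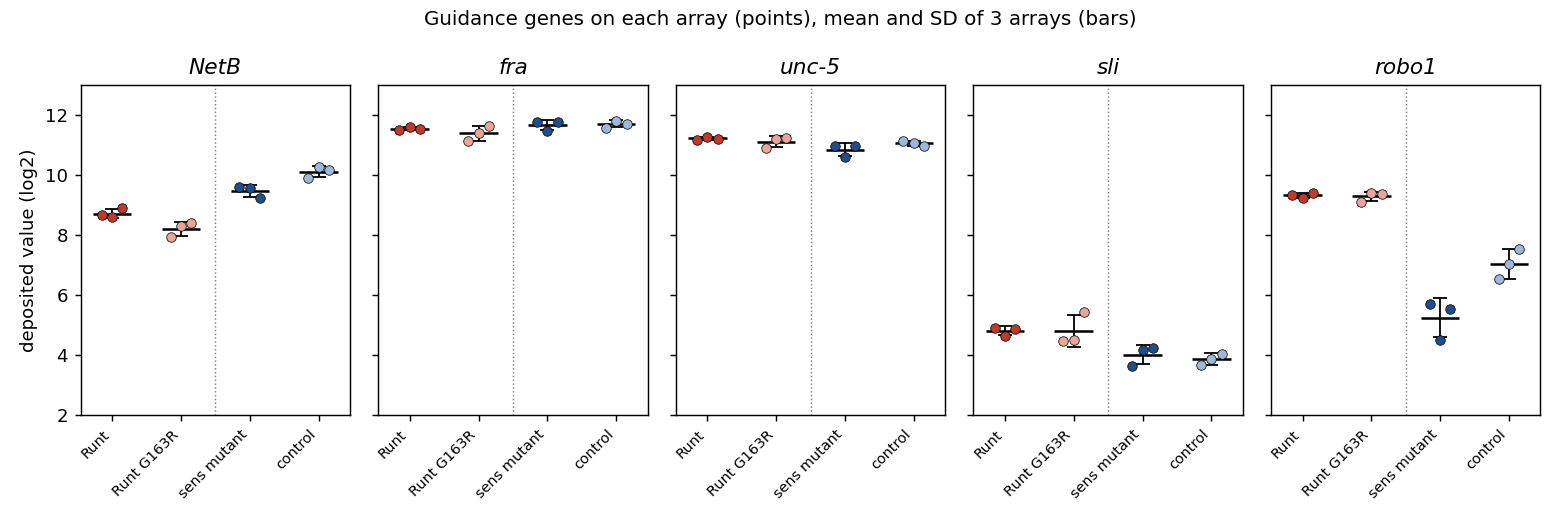
Deposited log2 value of NetB, fra, unc-5, sli and robo1 on each of the 12 arrays, for the brightest probe set of each gene. Points are arrays, horizontal bars are means and whiskers are SD (n = 3), and the dotted line parts the Runt from the sens experiment. The robo1 points lie between 9.10 and 9.40 in the 6 Runt and Runt G163R arrays, between 4.49 and 5.71 in sens mutants and between 6.54 and 7.54 in controls, while those of fra and unc-5 stay within a narrow band.

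Among the ligands, NetB lies on the X chromosome and encodes a Netrin. Its level was 9.58, 9.55 and 9.22 in the sens mutant arrays, against 9.90, 10.25 and 10.16 in control arrays. Every mutant array was below every control array, as for 14.4% of all probe sets. The difference was -0.65 (SE 0.147, 95% interval -0.98 to -0.32), with an adjusted p of 0.0145 in limma's moderated test with Benjamini-Hochberg adjustment over all 11470 probe sets that passed the filter on low values. In that test 16.9% of all probe sets were called at an adjusted p under 0.05 (11.6% higher and 5.3% lower in sens mutants), and 2 of the 5 genes of the set were, both lower. The call of NetB was lost without sens mutant replicate 3 (-0.54, adjusted p = 0.0525) and without control replicate 2 (-0.58, adjusted p = 0.0517).

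In the Runt experiment NetB stood at 8.65, 8.59 and 8.88 in Runt arrays, against 7.94, 8.28 and 8.38 in Runt G163R arrays. The groups did not overlap, with every Runt array the higher, a pattern seen in that direction for 4.7% of all probe sets and in either direction for 9.44%. The difference of 0.50 (SE 0.147, 95% interval 0.18 to 0.83) did not pass the test (limma adjusted p = 0.613, unadjusted p = 0.00661). Only 5 probe sets of the array, or 0.0436%, were called in this comparison (0.0349% higher and 0.00872% lower in Runt), and 6.36% had an unadjusted p under 0.05. Without Runt replicate 3 the difference was 0.42 (limma adjusted p = 0.616), although 119 probe sets were called on those arrays.

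sli, on 2R, encodes the Slit ligand and was read by 2 probe sets. The first lay in the floor on all 12 arrays, between 2.06 and 2.09, and did not pass the filter. The second was also low. It stood at 3.64, 4.15 and 4.22 in sens mutants and at 3.66, 3.87 and 4.04 in controls, and these groups overlapped throughout (difference 0.14, SE 0.257, 95% interval -0.43 to 0.71, limma adjusted p = 0.734). In Runt arrays it was at 4.90, 4.62 and 4.87, against 4.46, 4.51 and 5.42 in Runt G163R arrays. Runt G163R replicate 3 was the highest of these 6 arrays. Group means were both 4.80, with a 95% interval of the difference from -0.57 to 0.57, and without Runt G163R replicate 3 the difference was 0.31 (limma adjusted p = 0.729). At this brightness a change of sli within these 95% intervals, in either direction, is not excluded.

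Among the receptors, robo1 lies on 2R and encodes a repulsive receptor for Slit. Its level was 5.71, 4.49 and 5.53 in sens mutant arrays, against 6.54, 7.03 and 7.54 in control arrays. The groups did not overlap, and all 6 values lay above the floor. The difference was -1.80 (SE 0.316, 95% interval -2.50 to -1.09, limma adjusted p = 0.00456), and the call held in every alternative processing tried. It was weakest in a fit to the 6 sens mutant and control arrays alone, with an SE of 0.414 and a limma adjusted p of 0.0447. Among all probe sets, 2.2% were called lower by at least 1 log2 unit in the sens mutants, and 14.4% separated these groups downward without overlap (38% in either direction). Its single probe set is of a kind (name ending in _s_at) that the manufacturer uses for probes matching more than 1 transcript.

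In Runt arrays robo1 was at 9.32, 9.24 and 9.40, against 9.10, 9.38 and 9.36 in Runt G163R arrays. These 6 values overlapped and spanned 9.10 to 9.40. The difference was 0.04 (SE 0.316, 95% interval -0.66 to 0.75, limma adjusted p = 1). The 4 groups share 1 estimate of the spread. The SD of robo1 was 0.658 in sens mutants and 0.5 in controls, against 0.0800 in Runt and 0.158 in Runt G163R arrays (n = 3 each). In a fit to the 6 Runt and Runt G163R arrays alone the SE was 0.0973 and the adjusted p 0.981.

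fra, on 2R, encodes the attractive Netrin receptor. It was at 11.75, 11.47 and 11.76 in sens mutants, against 11.58, 11.81 and 11.71 in controls. These values overlapped, with a difference of -0.04 (SE 0.122, limma adjusted p = 0.841) and a 95% interval from -0.31 to 0.23. In Runt arrays fra was at 11.49, 11.60 and 11.54, against 11.12, 11.41 and 11.62 in Runt G163R arrays. The difference there was 0.15 (95% interval -0.12 to 0.43, limma adjusted p = 0.984), and the groups overlapped.

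unc-5, on 2R, encodes the repulsive Netrin receptor and was read by 2 probe sets. The brighter gave 10.97, 10.60 and 10.95 in sens mutants, against 11.13, 11.06 and 10.96 in controls. The groups overlapped by 1 mutant and 1 control array, and the difference of -0.21 (SE 0.111, 95% interval -0.46 to 0.04) did not pass the test (limma adjusted p = 0.234). This gene depended on the scaling between arrays: with the median of the filtered probe sets of each array subtracted, the difference was -0.38 (limma adjusted p = 0.0440), where the median of all probe sets tested was -0.137 instead of 0.031. In Runt arrays the brighter probe set gave 11.18, 11.28 and 11.20, against 10.91, 11.21 and 11.23 in Runt G163R arrays, a difference of 0.11 (95% interval -0.14 to 0.36, limma adjusted p = 1). The other probe set of unc-5 lay in the floor, between 2.44 and 2.80 over the 12 arrays, and was not called in either comparison.

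**Figure D2:**
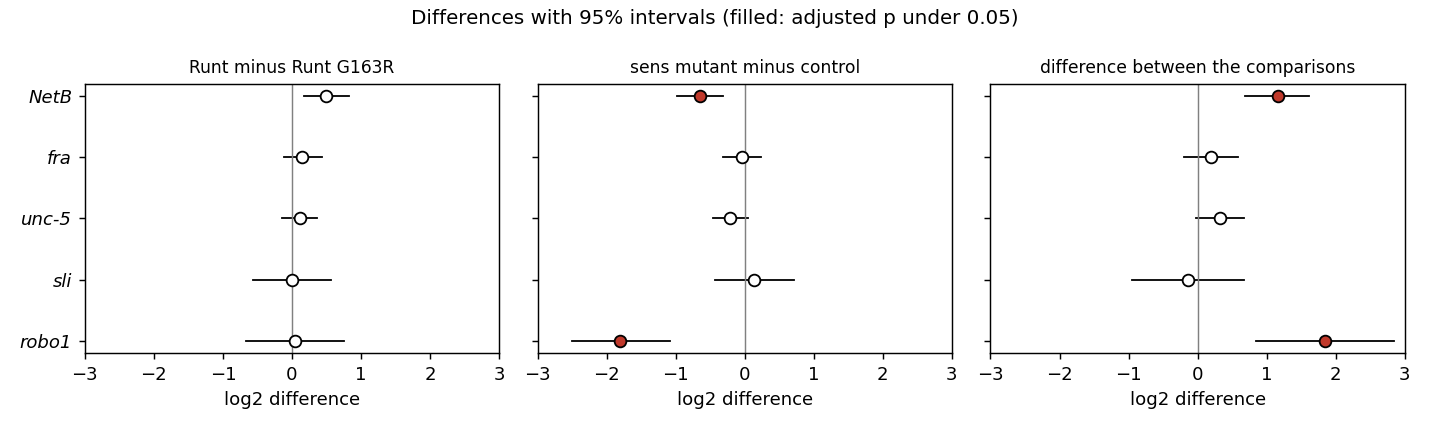
Log2 differences of the 5 genes in Runt minus Runt G163R, in sens mutant minus control, and in the first of these minus the second. Points are estimates of the limma fit, lines are 95% intervals, and filled points have an adjusted p under 0.05. NetB at -0.65 and robo1 at -1.80 are filled in the sens comparison, no gene is filled in the Runt comparison, and the intervals of fra, unc-5 and sli include 0 in all 3 panels.

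Whether a gene differed between the comparisons was tested as the Runt difference minus the sens difference. For NetB this was 1.16 (SE 0.208, limma adjusted p = 0.00874), and for robo1 it was 1.84 (SE 0.447, limma adjusted p = 0.0307). By this test 10.1% of all probe sets were called, 3.35% in the positive direction of both genes and 6.74% in the negative one. The call of NetB held in all 21 alternatives in which this test was made, while that of robo1 was lost in 8 of them, with an adjusted p between 0.00518 and 0.0724 over all 21. Without Runt replicate 3 the difference was 1.07 for NetB (limma adjusted p = 0.0193) and 1.80 for robo1 (0.0605). For fra, unc-5 and sli it was 0.20, 0.32 and -0.14, with adjusted p values of 0.497, 0.235 and 0.816 in limma.

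The levels of the genes ordered the 4 groups differently. For NetB the order from high to low was control, sens mutant, Runt and Runt G163R, with gaps of 0.65, 0.75 and 0.50 between neighbours and no overlap of arrays at any step. For robo1 it was Runt, Runt G163R, control and sens mutant. Runt and Runt G163R overlapped there, and the next gaps were 2.24, of Runt G163R above control, and 1.80, of control above sens mutant. For sli the Runt and Runt G163R groups lay together above the sens mutants and controls, which also lay together. For fra and unc-5 neighbours in the order overlapped at every step.

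Between the experiments, robo1 averaged 9.30 over the 6 Runt and Runt G163R arrays and 6.14 over the 6 sens mutant and control arrays, 3.16 apart with no overlap. NetB averaged 8.45 in the first and 9.78 in the second, a difference of -1.33 with no overlap, and sli was higher by 0.87 in the first, also with no overlap. For fra and unc-5 the arrays of the experiments overlapped, with differences of -0.22 and 0.22. Over the whole array 23.8% of probe sets separated the experiments without overlap (13.9% higher in the Runt experiment), and 6.98% did so with a mean difference of at least 1 log2 unit. Each genotype was measured in 1 experiment, so experiment and genotype cannot be told apart here.

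Levels of marker genes moved with these groups. The mean log2 value of 7 photoreceptor genes was 7.89 to 7.97 in sens mutants, against 9.08 to 9.19 in controls. By limma 5 of the 7 fell. Of all probe sets, 5.3% were called lower and 11.6% higher in this comparison, which holds for the lists below too. boss had the largest difference of the 7, at -4.04, with its sens mutant arrays in the floor. It therefore weighed most in the fall of the list mean. The differences of gl, sev, nrm and futsch were -0.47, -1.07, -1.54 and -1.08. elav (-0.27, limma adjusted p = 0.383) and chp (0.04, 0.91) were not called. Of the 7 brain and neuroblast genes 5 fell and 1, ey, rose, with mean values of 6.56 to 6.62 in sens mutants against 7.50 to 7.89 in controls. ey is also expressed in the eye disc itself, so its level is no measure of brain tissue here. For antenna and leg disc genes 3 of 5 fell, and the mean was 5.80 to 6.17 in sens mutants against 6.67 to 7.17 in controls. Among 6 glial genes 2 rose, moody and wrapper, and none fell, with means of 9.89 to 10 in sens mutants against 9.49 to 9.63 in controls. No defining marker of these 4 lists was in the floor on every array. Of the genes that fell, wor (mean 2.71) and ap (2.72) lay in the floor in sens mutants, with control means of 4.25 and 3.55.

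Like NetB, several brain and antennal markers were highest in controls. Ddc, the dopa decarboxylase gene, was at 4.56 in Runt, 4.31 in Runt G163R, 6.76 in sens mutant and 9.51 in control discs as a group mean. Dll, the appendage selector gene, averaged 5.17, 5.33, 6.75 and 8.59 in Runt, Runt G163R, sens mutant and control discs. Other genes of these lists did not follow NetB. dpn was highest in Runt G163R (9.61, against 9.07 in control) and ey in sens mutant discs (10.76, against 10.26 in control). Unlike NetB, ase (3.94 against 5.04), mira (6.40 against 6.71), dpn (8.73 against 9.29) and ss (6.33 against 6.40) averaged lower in sens mutant than in Runt discs. For wor (2.71 against 2.98) and ap (2.72 against 2.76) these averages lay in the floor. The mean of the haemocyte list separated the experiments, in the direction of robo1 and sli. For its 8 genes the mean was 7.89 to 8.67 in Runt and 8.48 to 8.86 in Runt G163R arrays. In sens mutant arrays it was 4.73 to 5.16, and in control arrays 5.13 to 6.49. Ppn did not follow, with averages of 11.90 in Runt, 11.85 in Runt G163R, 11.94 in sens mutant and 12.07 in control arrays. srp overlapped between the experiments, from 6.36 in Runt arrays and up to 6.79 in control arrays. None of these 8 genes was called in either comparison. Of the muscle markers, twi and Mlc2 lay in the floor on all arrays, and so did btl of the tracheal list. In the sens comparison serp of that list rose by 0.33 (limma adjusted p = 0.00292) and verm fell by 0.21 (0.0477), and no muscle or fat body gene was called. The mean of 3 fat body genes differed widely between arrays of a group, at 5.19, 9.97 and 3.50 in sens mutants, against 11.35, 7.32 and 3.77 in controls. The highest array of each of these groups was also its lowest for robo1. Without sens mutant replicate 2 the robo1 difference was -1.42 (limma adjusted p = 0.00711), and without control replicate 1 it was -2.04 (0.00472). The part of these cell types in the values of NetB, robo1 and sli was otherwise not tested.

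**Figure D3:**
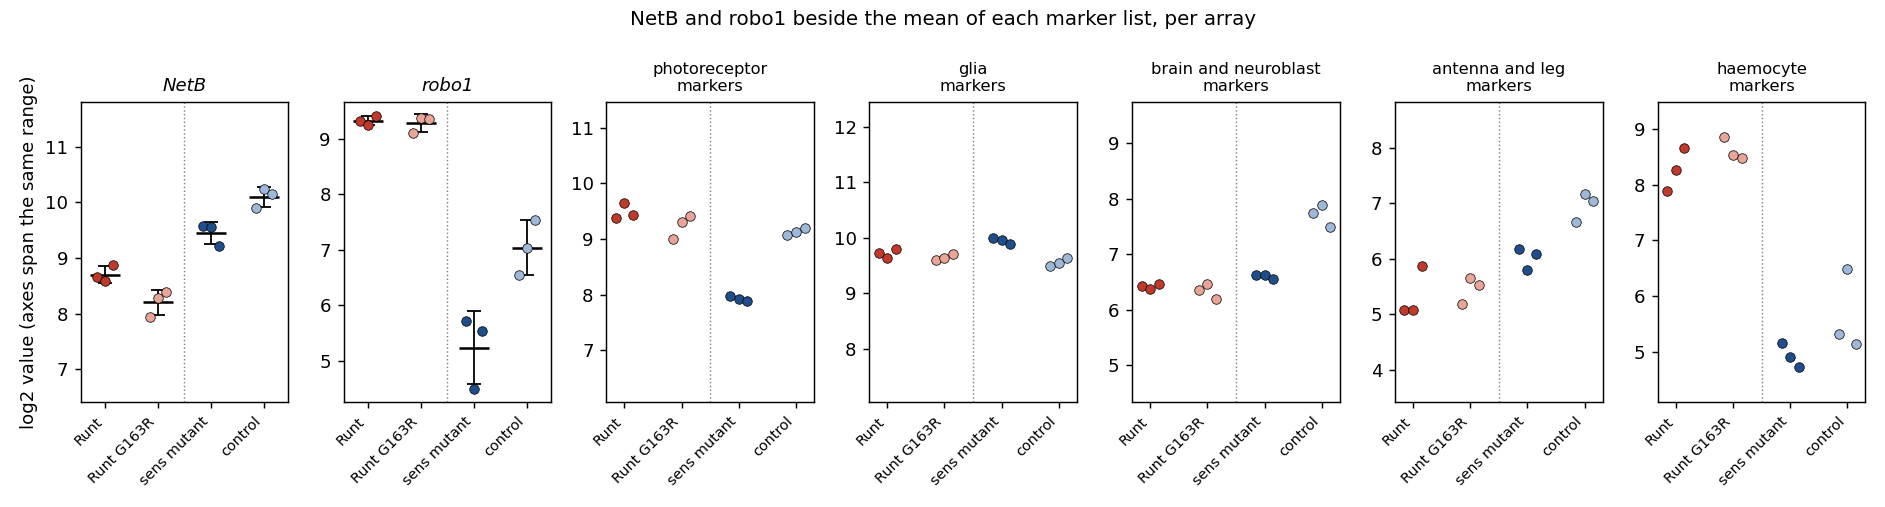
NetB and robo1 (points, with mean and SD of 3 arrays) beside the mean log2 value of 5 marker lists (points only) on each array. All vertical axes span the same number of log2 units but start at different values. Controls are highest for NetB and for the brain and the antenna and leg lists, sens mutants are lowest for robo1 and for the photoreceptor list, and the haemocyte list lies between 7.89 and 8.86 in the Runt experiment and between 4.73 and 6.49 in the sens experiment.

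The genes most like each called gene over the 12 arrays were taken by Pearson correlation among 1432 named genes with an SD of at least 0.5. These correlations mix the step between the experiments with the differences inside them. For robo1 the nearest was gl (glass), a zinc-finger gene needed for photoreceptor development, with r = 0.981. gl averaged 12.50 in both Runt and Runt G163R, 11.36 in sens mutants and 11.84 in controls, and it fell by 0.47 in the sens comparison (limma adjusted p = 0.0127). Next came the tetraspanin gene Tsp42El (r = 0.972), l(3)80Fg (0.965), the glutathione transferase gene GstZ2 (0.960) and CG14868 (0.959). For NetB the nearest were CG1632, CG34398 and Reph (r = 0.972 each), H (0.971), which encodes the Notch pathway repressor Hairless, and CG31705 (0.965). Of these 5, H fell in the sens mutants by 0.75 (limma adjusted p = 0.00525), CG31705 by 0.53 (0.0028) and CG1632 by 0.39 (0.0158). Reph differed by -0.58 with a limma adjusted p that rounds to the threshold of 0.05, and CG34398 by -0.37 (0.145).

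The genes beside NetB and robo1 on their chromosome arms were examined as well. Of the 20 genes nearest to robo1 on 2R with a filtered probe set, 10 on each side, only CG3649 was called, and it was higher in the mutants by 0.85 (limma adjusted p = 0.0327). CG4250, at -1.66, did not pass the test (limma adjusted p = 0.108), and the median difference of the 20 was -0.02. Of the 20 genes around NetB on the X, Muc12Ea fell by 1.76 (limma adjusted p = 0.00380) and mRpS25 rose by 0.42 (0.0166), with a median of 0.01. Called probe sets made up 17.4% of those on 2R (5.26% lower in the mutants), the arm of robo1, and 15.4% of those on the X (3.63% lower), the arm of NetB. The share was 15.4% on 2L, 23.3% on 3L, which holds sens, 21% on 3R and 26.3% on the small chromosome 4.

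**Figure D4:**
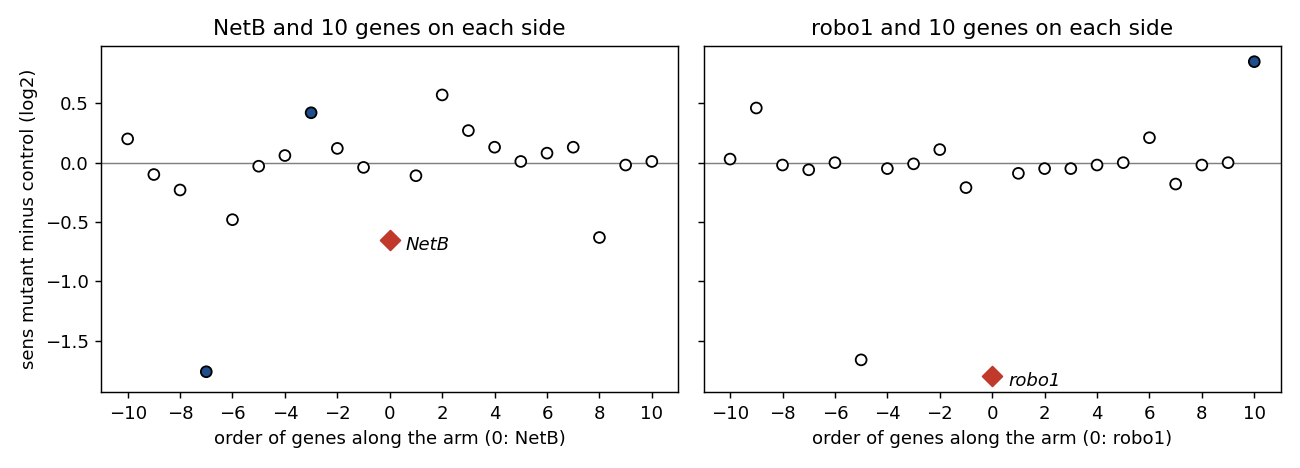
Log2 difference of sens mutant minus control for NetB (left) and robo1 (right), drawn as diamonds, and for the 10 genes with a filtered probe set on each side, drawn as circles in their order along the chromosome arm. Filled circles have an adjusted p under 0.05. Most circles lie near 0, and around robo1 only CG4250, at -1.66 and not called, comes near its value of -1.80.

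Other genes of the pathway were taken from 3 lists with 38 members, of which 25 were named on the array and 23 of these passed the filter. In the sens mutants 4 of the 23 fell and none rose (17.4%, against 16.9% of all probe sets called and 5.3% called lower). The median difference was -0.08 for the 23 genes and 0.031 for all probe sets tested. The number called was 4 with each array left out in turn. The direction of calls over the whole array depends on the scaling: 68.7% of all calls were higher with the deposited values, 50.1% after a second quantile normalization and 29.7% with the median of the filtered probe sets subtracted.

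Of the 5 measured Netrin-side genes 2 fell. mid, a T-box transcription factor gene, was at 7.16, 6.69 and 6.90 in sens mutants, against 7.98, 8.78 and 8.51 in controls, and fell by 1.51 (SE 0.239, limma adjusted p = 0.00263). Trim9, whose mouse and worm counterparts bind the DCC family of Netrin receptors, was at 8.59, 8.67 and 8.58 in sens mutants, against 9.29, 9.53 and 9.48 in controls, and fell by 0.82 (SE 0.156, limma adjusted p = 0.00668). Neither gene's groups overlapped, and 14.4% of all probe sets separated these groups in the same direction. Like NetB, Trim9 was lower in the Runt experiment, with means of 5.99 in Runt and 5.53 in Runt G163R. Dscam1, another Netrin receptor of the fly, differed by 0.09 and Psn, a presenilin gene, by -0.04, and neither passed the test.

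Of the 7 measured effector genes that act below both receptor families 2 fell. Abl, the Abelson tyrosine kinase gene, was at 5.50, 6.05 and 5.33 in sens mutants, against 6.74, 7.25 and 6.96 in controls, and fell by 1.36 (SE 0.220, limma adjusted p = 0.00298). trio, a guanine nucleotide exchange factor gene for Rac, was at 7.14, 7.14 and 6.91 in sens mutants, against 7.86, 7.95 and 7.70 in controls, and fell by 0.77 (SE 0.155, limma adjusted p = 0.00838). Here too the groups did not overlap, as for 14.4% of all probe sets in this direction and 38% in either. ena, chic, Pak, Sos and DAAM did not pass the test, with differences between -0.24 and -0.01.

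None of the 11 measured Slit-side genes was called by its brightest probe set in the sens comparison, and their differences ran from -0.36 for kuz, the protease gene kuzbanian, to 0.16 for RhoGAP93B. comm, whose product keeps Robo off the growth cone surface in embryos, differed by -0.20 (limma adjusted p = 0.354). lola, a transcription factor gene with many isoforms and many probe sets, differed by -0.21 at its brightest, but 3 of its other probe sets rose, by 1.22, 0.65 and 0.63 (limma adjusted p = 0.00121, 0.0496 and 0.0286). comm3 and exex lay in the floor and did not pass the filter.

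In the Runt comparison none of the 23 pathway genes was called with all arrays weighted equally, and 0.0436% of all probe sets were. With array weights, a setting that called 466 probe sets, 3 of the 23 were called: Ptp10D (1.95, limma adjusted p = 0.0122), comm (-0.55, 0.0234) and Trim9 (0.53, 0.0337). The median difference was 0.06 for the 23 genes and -0.001 for all probe sets tested. Ptp10D, a receptor tyrosine phosphatase gene that acts with Robo, was at 8.12, 8.46 and 6.41 in Runt, against 5.91, 6.26 and 6.09 in Runt G163R. The first and second Runt arrays were the high ones. The difference was 1.58 (limma adjusted p = 0.659) with all arrays, and 2.21 (limma adjusted p = 0.0205) without Runt replicate 3, where it was the only pathway gene called. Its other probe set differed by -0.82 (limma adjusted p = 0.816), so the direction of the gene is not settled. comm was at 10.34, 10.33 and 10.16 in Runt, against 10.96, 10.90 and 10.61 in Runt G163R, lower in every Runt array by a difference of -0.55 that did not pass the test with equal weights (limma adjusted p = 0.528). Of all probe sets, 9.44% separated these groups in either direction. For tutl (turtle), of the immunoglobulin superfamily, a dim probe set rose by 0.85 (limma adjusted p = 0.00385), but the brightest of that gene did not pass the test (0.74, adjusted p = 0.896). That brightest probe set was at 7.07, 7.53 and 9.01 in Runt, against 6.81, 7.18 and 7.40 in Runt G163R, and without Runt replicate 3 its difference was 0.17 (limma adjusted p = 1).

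**Figure D5:**
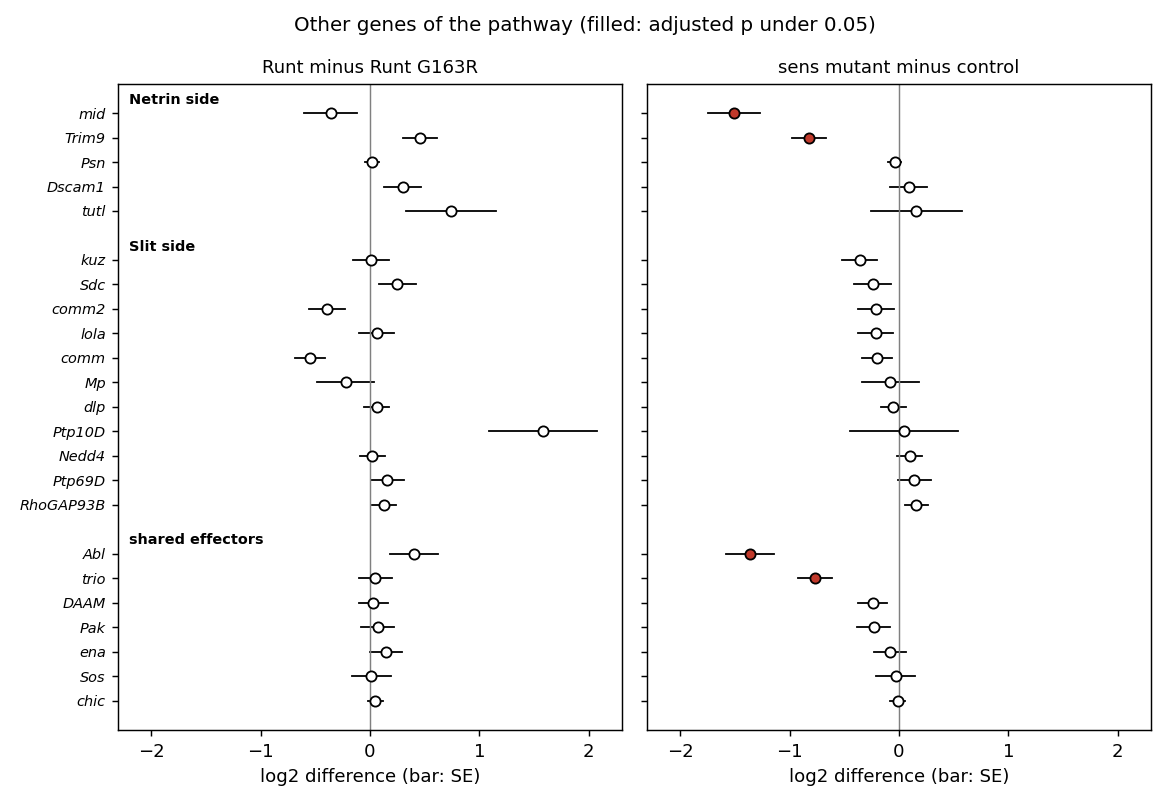
Log2 differences of 23 other genes of the pathway in both comparisons, by list. Points are estimates for the brightest probe set of each gene, bars are standard errors, and filled points have a limma adjusted p under 0.05. In the sens comparison mid, Trim9, Abl and trio are filled, all below 0, and in the Runt comparison no point is filled, with Ptp10D farthest from 0 at 1.58.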

How the data were processed

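RNA of eye discs was measured on 12 expression arrays. The authors deposited log2 values for 18952 probe sets (183 controls). Array medians ran from 2.59 to 2.67, in the floor, and do not show how well brighter values were normalized. A second quantile normalization changed the number of calls in the sens comparison from 1940 to 1457. The log2 scale was inferred from the values, whose lowest was 1.63. The submitters' processing notes name MAS5, GCRMA and affy without saying which made the deposited log2 values. The platform annotation gives 1 gene to 13647 probe sets and several to 402; 4720 are unnamed. Symbols and chromosome arms come from RefSeq (Release 6 plus ISO1 MT) through gene identifiers.

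The filter kept probe sets exceeding an array's 40th percentile in 3 or more arrays (11470; 6 of the 7 studied here). limma 3.58.1 in R 4.3.3 (lmFit with 4 group means on all arrays, eBayes with intensity trend) gave differences, standard errors (SE), intervals and two-sided p-values, adjusted by Benjamini-Hochberg over all kept probe sets and called under 0.05. The fit was checked on simulated data. Each gene is represented by its brightest probe set. Named are all 7 genes, their 5 nearest genes by correlation, called genes of the pathway lists and at most 4 more per list, and further list genes, neighbours and the comparison of experiments were added with values in view. The genes and lists were chosen with earlier results of these data known. Filter, scaling, variance model, array weights, arrays fitted, replicate block, probe set summary and each array were varied. For arrays, their number limits the precision.

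Arrays of a group correlated at 0.988 to 0.997, and no pair shared more than 1 identical value. No sequence is shown.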

Additional observations from a re-analysis of the deposited data

Results flagged for a closer look

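The response of 2 genes differed between the Runt and the sens comparison by the test of that difference. By this test 10.1% of all probe sets were called, 3.35% of them all in the positive direction of both genes. For NetB the Runt difference exceeded the sens difference by 1.16 (log2, SE 0.208, limma adjusted p = 0.00874), with all 3 Runt arrays above all 3 Runt G163R arrays and all 3 sens mutant arrays below all 3 controls. For robo1 the Runt difference exceeded the sens difference by 1.84 (SE 0.447, limma adjusted p = 0.0307), with overlapping Runt and Runt G163R arrays and all 3 sens mutant arrays below all 3 controls. This call of robo1 was lost in 8 of 21 alternatives, while that of NetB held in all 21. Of all probe sets, 4.7% had every Runt array above every Runt G163R array, and 14.4% had every sens mutant array below every control. Groups of 3 arrays are too small to test for single outlying arrays.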

How the results depend on the processing

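The differences of robo1 and NetB in the sens comparison kept their direction in all 22 alternatives, from -2.04 to -1.42 and from -0.82 to -0.54. robo1 stayed called in all of them (adjusted p 0.00033 to 0.0447) and NetB in 20 (0.000901 to 0.0525). The number of the 5 genes called there was 1 to 2 with each array left out, and 0 in the Runt comparison throughout. The scaling by the median of filtered probe sets was added after seeing the data. In the Runt comparison, the count of 5 called probe sets was 0 with the 60th percentile filter, 466 with array weights, 1 on its 6 arrays alone, 2 with gene means of probe sets, and 4 to 119 with each array left out; 119 was without Runt replicate 3, 8 without Runt replicate 1 and 12 without Runt G163R replicate 3. The sens count of 1940 was 1220 to 2009 with each array left out, the lowest without sens mutant replicate 1. The count for the difference between comparisons, 1157, was 2669 with array weights and 702 to 1327 with each array left out; it was 702 to 747 without sens mutant replicate 1 or 3, Runt replicate 2, or Runt G163R replicate 1 or 2. The causes were not tested.

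Differences near 0 changed sign. With each array left out, the lowest and highest were -0.17 and 0.31 for sli in the Runt comparison, -0.10 and 0.05 for fra in the sens comparison, and -0.32 and 0.17 for sli between the comparisons. In the Runt comparison sli, at 0.00, became 0.01 after a second quantile normalization and with the filtered medians subtracted, 0.07 with array weights, 0.00 with gene means, 0.09 without Runt replicate 2 and 0.31 without Runt G163R replicate 3; robo1 became -0.08 with array weights and -0.05 without Runt G163R replicate 1. In the sens comparison sli became -0.05 with array weights and -0.03 with the filtered medians subtracted, and fra became 0.00 with array medians subtracted, 0.05 without sens mutant replicate 2 and 0.01 without control replicate 2. The sli difference between comparisons became 0.13, 0.04 and 0.17 with array weights, filtered medians and without Runt G163R replicate 3.

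Replicate numbers are shared across groups. Deviations of same-numbered arrays from their group means correlated at r = 0.256, -0.121 and 0.0646 in the Runt experiment, and at -0.42, -0.0674 and 0.0756 in the sens experiment. Between differently numbered arrays r ran from -0.207 to 0.178 in the Runt and from -0.383 to 0.394 in the sens experiment. With 3 arrays per group, these values cannot settle whether same-numbered arrays were handled together. With the replicate block 1 probe set was called in the Runt, 1564 in the sens comparison and 817 for the difference. NetB (adjusted p = 0.0339) and robo1 (0.0215) stayed called in the sens comparison, and robo1 lost its call for the difference (0.0645). Of the 23 pathway genes 4 to 6 were called in the sens comparison over all alternatives, and 0 to 3 in the Runt comparison, with 3 under array weights.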
